A study of Homo sapiens with 4 samples.

Results

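Interferon-stimulated genes are the genes that cells switch on when they sense interferon, and 40 of them were followed here in T24 and 5637, lines of human bladder cancer cells. Members were found by Ensembl ID among the 60617 genes of the expression table, where all 40 were present, RIGI being the gene also written DDX58. They comprise 3 sensors of foreign RNA, 4 transcription factors of the STAT and IRF families and 33 antiviral effectors. T24 and 5637 are established lines from carcinomas of the urinary bladder, and 4 libraries were made: treated T24 (60 µM protodioscin), untreated T24, treated 5637 (70 µM protodioscin) and untreated 5637. Protodioscin is a steroidal saponin of plants such as fenugreek, given here for 6 h. All cells grew in RPMI medium with serum and antibiotics, and no added interferon is named for any group. Doses are in µM as in the sample titles, although the protocol writes these figures with mM. The doses differed between the lines, no vehicle is named for the untreated cells, and each group was 1 library, so values within a line carry no replicate error.

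Type I interferons bind the receptor pair IFNAR1 and IFNAR2, whose kinases JAK1 and TYK2 phosphorylate STAT factors such as STAT2. STAT2 and IRF9 are parts of a complex called ISGF3, which binds a DNA element, the interferon-stimulated response element (ISRE), in front of most of these genes. Their products block entry, translation, replication and budding of viruses, and several of them (STAT2, IRF7, IRF9, RIGI, IFIH1) are themselves parts of the pathway. Many tumour cell lines carry a standing level of such transcripts without added interferon.

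Levels are FPKM (fragments scaled by transcript length and by the mapped fragments of the library), which corrects for length and so allows genes to be compared. The 4 libraries had between 11941 and 12405 genes at 1 FPKM or more. The table gives no read totals, so depth is unknown. The 11 mitochondrially encoded transcripts measured held 2.57% of the FPKM sum in treated and 3.11% in untreated T24, and 7.74% in treated and 6.47% in untreated 5637. Markers of leukocytes summed to 0.927 and 0.768 FPKM in treated and untreated T24 and to 0.269 and 0.147 FPKM in treated and untreated 5637, with PTPRC at most 0.00533 FPKM. All 4 markers of plasmacytoid dendritic cells, which are strong makers of interferon, were at 0 in both T24 libraries, and 3 of them in both 5637 libraries. Of the line markers, KRT5 was at 283 and 331 FPKM in treated and untreated 5637 and at 0 in T24, while the mesenchymal factor ZEB1 was at 8.38 and 8.46 FPKM in treated and untreated T24 and at 0.179 and 0.0702 FPKM in 5637. The mesenchymal markers FN1 and CDH2 were also higher in T24. VIM went the other way, at 61.4 and 68.0 FPKM in treated and untreated T24 and at 267 and 304 FPKM in treated and untreated 5637. The uroplakins UPK1A, UPK2 and UPK3A, which define differentiated urothelium, stayed at or below 0.211 FPKM in all 4 libraries, as did KRT20. The other 2 luminal markers were expressed in both lines. PPARG was at 16.2 and 17.6 FPKM in treated and untreated T24 and at 37.5 and 50.4 FPKM in treated and untreated 5637. GATA3 was at 17.4 and 17.6 FPKM in treated and untreated T24 and at 17.0 and 14.5 FPKM in treated and untreated 5637.

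T24 held a far larger amount of interferon-stimulated transcripts than 5637, whether treated or not. The 40 genes together made up 1.04% of the FPKM sum in treated and 0.934% in untreated T24, against 0.113% in treated and 0.114% in untreated 5637. Their median level was 32.9 FPKM in treated and 29.9 FPKM in untreated T24, against 2.56 and 2.67 FPKM in treated and untreated 5637. All 40 were at 1 FPKM or more in both T24 libraries, whereas 32 were in treated and 31 in untreated 5637, and 8 members exceeded 100 FPKM in each T24 library against 1 in each 5637 library. In bulk RNA, more cells that carry a transcript and more transcript per cell cannot be told apart.

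**Figure D1:**
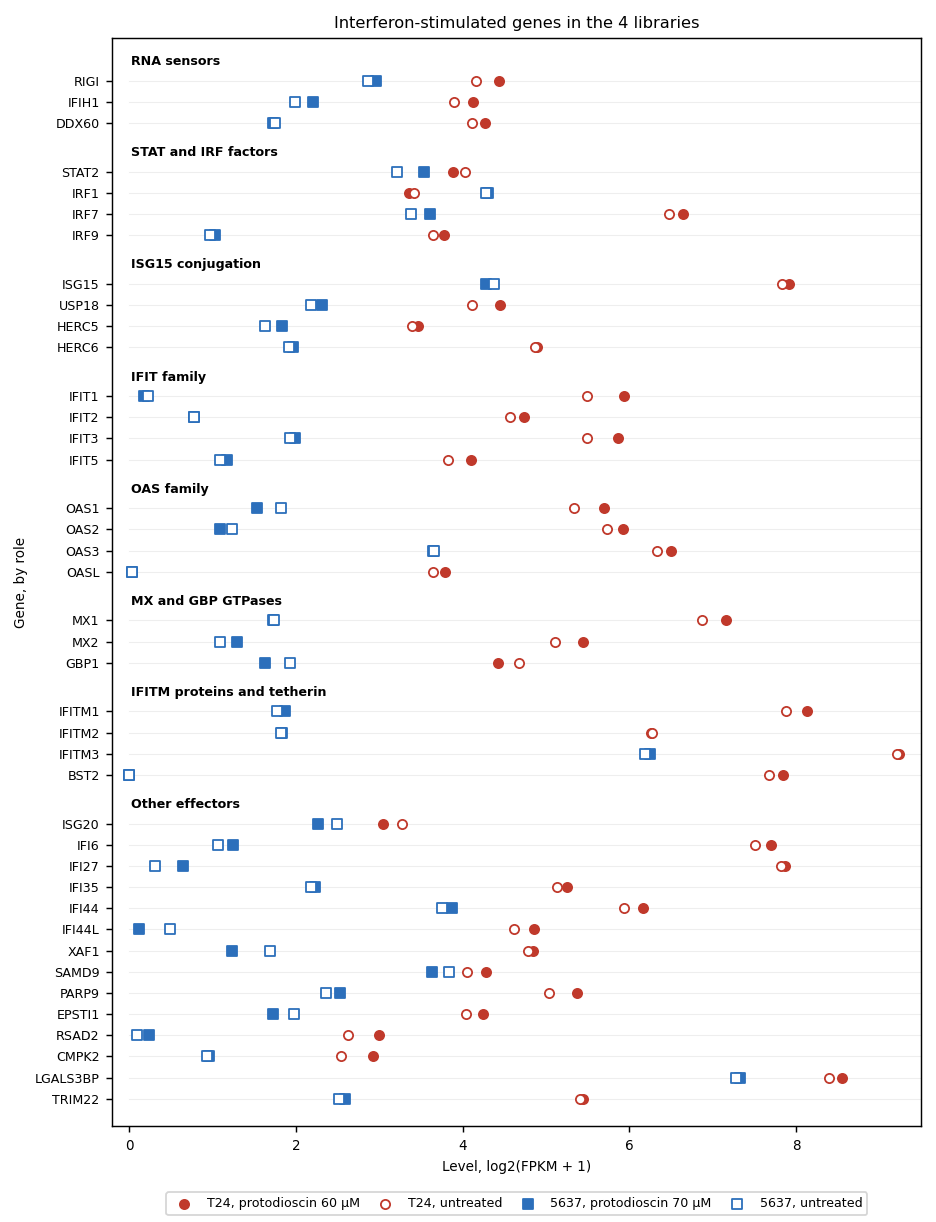
Level of each of the 40 genes in the 4 libraries, as log2(FPKM + 1), with genes in rows by role, T24 as red circles, 5637 as blue squares, and treated libraries filled. Each point is 1 library without an error bar, and both T24 points lie right of both 5637 points for every gene except IRF1. How many of all genes show such an order was not counted.

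The 3 RNA sensors were several times higher in T24. RIGI, the helicase that recognises RNA with a triphosphate end (at chromosome 9, 32455705 to 32526324, a GRCh38 position like all those given here), was measured at 20.7 FPKM in treated and 16.9 FPKM in untreated T24, and at 6.77 FPKM in treated and 6.29 FPKM in untreated 5637. IFIH1, which encodes MDA5, the sensor of long double-stranded RNA, was at 16.4 and 13.8 FPKM in treated and untreated T24 and at 3.59 and 2.98 FPKM in treated and untreated 5637. DDX60, a helicase linked to RIGI signalling, was at 18.2 and 16.3 FPKM in treated and untreated T24 and at 2.32 and 2.35 FPKM in treated and untreated 5637. For all 3 the lowest T24 value lay above the highest 5637 value, an order that was not counted over all genes.

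The transcription factors did not all follow that order. IRF7, the master inducer of interferon alpha genes (chromosome 11, 612553 to 615999), was at 98.5 FPKM in treated and 87.7 FPKM in untreated T24, and at 11.2 FPKM in treated and 9.44 FPKM in untreated 5637. IRF9, the DNA-binding part of ISGF3, was at 12.7 and 11.5 FPKM in treated and untreated T24 and at 1.04 and 0.964 FPKM in treated and untreated 5637. IRF9 shares exons on its own strand with a gene annotated in GENCODE 29 as AL136295.5, which was at 24.9 and 24.2 FPKM in treated and untreated T24 and at 7.74 and 6.91 FPKM in 5637, so its own level is uncertain. STAT2 was closer between the lines, at 13.7 and 15.3 FPKM in treated and untreated T24 and at 10.6 and 8.26 FPKM in treated and untreated 5637. IRF1, a factor that responds mostly to interferon gamma, was the only member lower in T24, at 9.25 and 9.65 FPKM in treated and untreated T24 and at 18.7 and 18.5 FPKM in treated and untreated 5637. IRF1 also shares exons with 2 genes on the opposite strand, whose reads cannot be separated in libraries that do not mark strand.

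ISG15, a ubiquitin-like protein that is attached to other proteins, was the most abundant transcript of its own conjugation system (chromosome 1, 1001138 to 1014540), at 239.6 FPKM in treated and 227 FPKM in untreated T24, and at 18.4 FPKM in treated and 19.8 FPKM in untreated 5637. HERC5, the main ligase that attaches ISG15, was at 10.0 and 9.53 FPKM in treated and untreated T24 and at 2.56 and 2.09 FPKM in treated and untreated 5637. Its neighbour HERC6 was at 28.7 and 28.1 FPKM in treated and untreated T24 and at 2.91 and 2.79 FPKM in treated and untreated 5637. USP18, which removes ISG15 and also damps the interferon receptor, was at 20.9 and 16.2 FPKM in treated and untreated T24 and at 3.97 and 3.55 FPKM in treated and untreated 5637. USP18 has a near-identical copy, USP41, listed at 0.824 and 1.11 FPKM in treated and untreated T24 and at 0.128 and 0.104 FPKM in 5637, and reads could be split between them. All 4 were higher in both T24 libraries than in either 5637 library, which again was not counted over all genes.

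The IFIT proteins bind viral RNA that lacks the host cap modification, and their genes lie in 1 cluster on chromosome 10 between 89283694 and 89421001. IFIT1 (chromosome 10, 89392546 to 89406486) was at 60.1 FPKM in treated and 43.8 FPKM in untreated T24, and at 0.132 FPKM in treated and 0.167 FPKM in untreated 5637. IFIT1 was thus high in T24 and under 0.2 FPKM in 5637. IFIT3, its stabilising partner, was at 57.2 and 43.9 FPKM in treated and untreated T24 and at 2.97 and 2.82 FPKM in treated and untreated 5637. IFIT2 was at 25.6 and 22.8 FPKM in treated and untreated T24 and at 0.719 and 0.711 FPKM in treated and untreated 5637. IFIT5 was at 16.1 and 13.2 FPKM in treated and untreated T24 and at 1.27 and 1.13 FPKM in treated and untreated 5637. In T24 the 4 genes lay between 13.2 and 60.1 FPKM, while in 5637 only IFIT3 and IFIT5 passed 1 FPKM. IFIT2 shares exons with LIPA on the opposite strand, which was at 18.3 and 17.7 FPKM in treated and untreated T24 and at 8.11 and 7.48 FPKM in treated and untreated 5637.

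The OAS enzymes make the 2′-5′ linked oligoadenylates that activate RNase L, and OAS1, OAS3 and OAS2 are adjacent on chromosome 12. OAS3, the form for long double-stranded RNA, was the highest of the family, at 89.5 and 79.4 FPKM in treated and untreated T24 and at 11.5 and 11.6 FPKM in treated and untreated 5637. OAS2 was at 59.8 and 52.0 FPKM in treated and untreated T24 and at 1.13 and 1.35 FPKM in treated and untreated 5637. OAS1 was at 50.9 and 39.3 FPKM in treated and untreated T24 and at 1.89 and 2.52 FPKM in treated and untreated 5637. Both OAS1 and OAS2 were above 39 FPKM in T24 and below 3 FPKM in 5637. OASL, a relative that lacks the enzyme activity and supports RIGI, was at 12.9 and 11.6 FPKM in treated and untreated T24 and at 0.0239 and 0.0267 FPKM in treated and untreated 5637. The family order from OAS3 down to OASL was the same in both T24 libraries.

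MX1 and MX2 are dynamin-like GTPases that trap viral nucleocapsids, and are neighbours on chromosome 21. MX1 (chromosome 21, 41420304 to 41459214) was at 142 FPKM in treated and 116 FPKM in untreated T24, and at 2.30 FPKM in treated and 2.34 FPKM in untreated 5637. MX2 was at 42.7 and 33.4 FPKM in treated and untreated T24 and at 1.45 and 1.14 FPKM in treated and untreated 5637. GBP1, a GTPase induced most strongly by interferon gamma, was at 20.5 and 24.5 FPKM in treated and untreated T24 and at 2.09 and 2.82 FPKM in treated and untreated 5637. The MX genes differed between the lines by more than GBP1 did, on the scale of log2(FPKM + 1) differences in untreated cells: 5.13 for MX1 and 4.01 for MX2, against 2.74 for GBP1.

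The membrane proteins IFITM1, IFITM2 and IFITM3, which stop viruses from fusing with the cell, included the most abundant member in T24. IFITM3 (chromosome 11, 319669 to 327537) was at 598 FPKM in treated and 589 FPKM in untreated T24, and at 74.6 FPKM in treated and 71.9 FPKM in untreated 5637, and it stood at rank 40 and 44 of all genes in treated and untreated T24. IFITM1 was at 278 and 234 FPKM in treated and untreated T24 and at 2.65 and 2.43 FPKM in treated and untreated 5637. IFITM2 was at 75.6 and 75.9 FPKM in treated and untreated T24 and at 2.56 and 2.55 FPKM in treated and untreated 5637. IFITM1 and IFITM2 share annotated exons on the same strand, and the 3 coding sequences are close copies, so the division of reads among them is uncertain. BST2, or tetherin, which holds budding virus at the surface (chromosome 19, 17402939 to 17405648), was at 228 and 203 FPKM in treated and untreated T24 and was listed at 0 in both 5637 libraries, the only member at 0 anywhere.

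Among the other effectors, 3 small or secreted proteins stood far apart between the lines or high in both. IFI27, a mitochondrial protein (chromosome 14, 94104836 to 94116698), was at 231 FPKM in treated and 225 FPKM in untreated T24, and at 0.566 FPKM in treated and 0.239 FPKM in untreated 5637. IFI6, which protects against cell death and flavivirus replication, was at 206 and 180.3 FPKM in treated and untreated T24 and at 1.38 and 1.09 FPKM in treated and untreated 5637. LGALS3BP, a secreted glycoprotein that binds galectins, was at 373 and 336 FPKM in treated and untreated T24 and at 159 and 154 FPKM in treated and untreated 5637, and was thus the one member above 100 FPKM in 5637 as well.

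IFI44 and IFI44L are neighbours on chromosome 1 with unlike levels in 5637. IFI44 was at 70.7 and 60.0 FPKM in treated and untreated T24 and at 13.7 and 12.5 FPKM in treated and untreated 5637. IFI44L was at 28.0 and 23.5 FPKM in treated and untreated T24 and at 0.0909 and 0.401 FPKM in treated and untreated 5637. TRIM22, a ubiquitin ligase that restricts several viruses, was at 42.7 and 41.3 FPKM in treated and untreated T24 and at 5.02 and 4.71 FPKM in treated and untreated 5637. XAF1, a partner of the apoptosis inhibitor XIAP, was at 27.6 and 26.5 FPKM in treated and untreated T24 and at 1.35 and 2.23 FPKM in treated and untreated 5637. All 3 of IFI44, TRIM22 and XAF1 were above 26 FPKM in both T24 libraries, and IFI44L was below 0.5 FPKM in both 5637 libraries. IFI35, a leucine zipper protein, was at 37.1 and 33.9 FPKM in treated and untreated T24 and at 3.71 and 3.55 FPKM in treated and untreated 5637. PARP9, an ADP-ribosyltransferase that works with the ligase DTX3L, was at 40.5 and 31.8 FPKM in treated and untreated T24 and at 4.76 and 4.15 FPKM in treated and untreated 5637. PARP9 and DTX3L share exons on opposite strands, so their values are not independent. EPSTI1 was at 18.0 and 15.5 FPKM in treated and untreated T24 and at 2.30 and 2.95 FPKM in treated and untreated 5637. SAMD9, a brake on poxvirus translation, was at 18.4 and 15.5 FPKM in treated and untreated T24 and at 11.4 and 13.3 FPKM in treated and untreated 5637. SAMD9 thus had the smallest line difference among untreated cells, 0.21 on the log2(FPKM + 1) scale.

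RSAD2, or viperin, makes a chain-terminating nucleotide from CTP, and its divergent neighbour CMPK2 makes nucleotides that feed it. RSAD2 was at 7.01 and 5.15 FPKM in treated and untreated T24 and at 0.179 and 0.0656 FPKM in treated and untreated 5637. CMPK2 was at 6.57 and 4.84 FPKM in treated and untreated T24 and at 0.940 and 0.920 FPKM in treated and untreated 5637. Both were the lowest members in T24, and both share exons on opposite strands with each other. ISG20, an exonuclease for single-stranded RNA, was at 7.24 and 8.69 FPKM in treated and untreated T24 and at 3.80 and 4.64 FPKM in treated and untreated 5637 and is named after its values were seen.

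The difference between the lines was tested with limma over all 4 libraries, with treatment as a second term. At a Benjamini-Hochberg adjusted p below 0.05 over 12893 genes, 39 of the 40 members were called higher in T24 and 1, IRF1, lower, against 35.1% of all genes called higher and 33.9% called lower. Since most genes passed, the size tells more: 36 members were called and at least 1 higher on the log2 scale, against 8.09% of all genes, and 31 were at least 2 higher, against 1.87%. All 40 were thus called, beside 68.9% of all genes. The members were chosen with earlier results of these data known, so these counts are no independent support. The median coefficient over the members was 2.90, beside 0.014 over all genes tested. The largest were BST2 at 7.76 (SE 0.082, adjusted p = 2.16e-07), IFI27 at 7.36 (SE 0.094, adjusted p = 2.60e-07), IFI6 at 6.44 (SE 0.069, adjusted p = 2.16e-07) and IFITM1 at 6.18 (SE 0.072, adjusted p = 2.60e-07). Since BST2 was listed at 0 in 5637, its coefficient depends on the pseudocount and is no fold. IFI27, IFIT1, IFIT2, OASL, IFI44L, RSAD2 and CMPK2 were also below 1 FPKM in both 5637 libraries. BST2 and these genes passed the filter for the limma fit only through T24, where they were high, so their calls are no added support. At the other end stood STAT2 at 0.58 (SE 0.12, adjusted p = 0.00678), SAMD9 at 0.43 (SE 0.11, adjusted p = 0.0164) and IRF1 at -0.91 (SE 0.076, adjusted p = 1.36e-04). Without a filter on low values the adjusted p was 0.0714 for STAT2 and 0.104 for SAMD9.

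Computed separately, the median line difference was nearly equal with and without protodioscin. The median over the 40 members was 2.92 in treated cells and 2.91 in untreated cells, beside -0.0099 and 0.030 over all genes compared. By role, the median was larger in treated cells for every group but the STAT and IRF factors. It was 3.91 in treated and 3.68 in untreated cells for the IFIT genes, and 3.96 and 3.56 for the OAS genes. For the STAT and IRF factors it was 1.54 and 1.74. The change with treatment was not tested. In treated and in untreated cells alike, 36 members were at least 1 higher in T24, against 8.24% of all genes in treated and 8.70% in untreated cells, and 0 were at least 1 lower, against 11.1% and 11.2%. In linear terms, IFI6 was 149 and 165 times as high in T24 as in 5637, in treated and in untreated cells. IFITM1 was 105 and 96.2 times as high, MX1 62.0 and 49.6 times and ISG15 13.0 and 11.5 times. These folds carry no pseudocount, and IFI6, IFITM1 and MX1 lay between 1.09 and 2.65 FPKM in 5637, so their folds are uncertain. The limma fit rests on 1 residual degree of freedom, which is the gap between the treatment differences of the lines. A real difference in response, or in dose, is thus counted as error. The prior variance estimated over all genes carries 4.99 degrees of freedom and so weighs more. Separate cultures are not documented in the labels, so the p-values describe no scatter among replicates, and what they do describe may be technical. With 1 line of each kind, the difference is between these lines and says nothing of bladder tumours at large.

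Most members with a promoter window held a match to the core of the ISRE, while binding of ISGF3 was not measured. RefSeq promoter windows on GRCh38.p14, from 250 bases before to 50 after a start site, were found for 32 of the 40 members (all but IRF7, USP18, IFIT2, OAS2, OASL, MX2, IFITM2 and TRIM22) and were searched on both strands for the ISRE core GAAANNGAAA. A match stood in a window of 23 of the 32 (71.9%), against 4.38% of 27305 genes with such a window. The core of the gamma-activated site, TTCNNNGAA, a motif that can overlap the ISRE core, stood in 10 of the 32 (31.3%), against 9.38% of all genes. The 5 members with the largest line difference among those with a window are shown whole, since they are nearly silent or low in 5637, with each ISRE core in capitals on the printed strand as GAAANNGAAA or its complement TTTCNNTTTC. The windows are BST2 (chr19:17405581-17405880, minus strand), IFI27 (chr14:94110486-94110785, plus strand), IFI6 (chr1:27672143-27672442, minus strand), IFITM1 (chr11:313790-314089, plus strand) and IFIT1 (chr10:89392373-89392672, plus strand), each read 5′ to 3′ along its gene.
BST2: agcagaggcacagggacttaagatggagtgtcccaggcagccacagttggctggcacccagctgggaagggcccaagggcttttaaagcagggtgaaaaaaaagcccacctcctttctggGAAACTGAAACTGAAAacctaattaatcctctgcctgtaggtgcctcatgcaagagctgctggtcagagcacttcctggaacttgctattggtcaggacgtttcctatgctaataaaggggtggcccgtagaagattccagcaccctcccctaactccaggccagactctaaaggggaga
IFI27: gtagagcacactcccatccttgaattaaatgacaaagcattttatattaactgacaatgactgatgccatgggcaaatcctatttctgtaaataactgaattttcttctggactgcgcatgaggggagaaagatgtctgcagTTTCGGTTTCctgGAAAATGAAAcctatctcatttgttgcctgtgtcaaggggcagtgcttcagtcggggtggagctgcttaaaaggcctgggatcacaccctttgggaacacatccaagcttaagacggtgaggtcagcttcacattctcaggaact
IFI6: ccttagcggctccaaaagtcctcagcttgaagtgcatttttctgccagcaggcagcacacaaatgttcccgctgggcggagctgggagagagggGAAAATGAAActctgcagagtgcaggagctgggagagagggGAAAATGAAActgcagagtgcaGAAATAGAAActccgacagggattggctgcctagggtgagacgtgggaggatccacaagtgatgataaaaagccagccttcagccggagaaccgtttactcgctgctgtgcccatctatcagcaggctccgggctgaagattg
IFITM1: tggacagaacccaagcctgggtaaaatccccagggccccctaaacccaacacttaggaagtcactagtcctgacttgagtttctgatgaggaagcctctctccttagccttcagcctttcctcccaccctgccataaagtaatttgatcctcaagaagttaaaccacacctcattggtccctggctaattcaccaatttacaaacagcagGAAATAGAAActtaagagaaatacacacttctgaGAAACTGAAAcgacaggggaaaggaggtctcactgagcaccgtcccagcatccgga
IFIT1: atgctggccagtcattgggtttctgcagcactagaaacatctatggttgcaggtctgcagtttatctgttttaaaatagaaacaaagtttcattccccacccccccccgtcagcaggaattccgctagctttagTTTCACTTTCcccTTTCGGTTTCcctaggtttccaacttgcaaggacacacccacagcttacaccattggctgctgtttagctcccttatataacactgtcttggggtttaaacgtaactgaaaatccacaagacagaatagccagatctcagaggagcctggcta

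Every one of these 5 windows held at least 2 core matches: 2 in BST2, which overlap, 2 in IFI27, 3 in IFI6, 2 in IFITM1 and 2 in IFIT1. Counted from the start site, the first bases of the matches of BST2, IFI27, IFI6 and IFIT1 lay at positions -156 to -93, and those of IFITM1 at -40 and -6. A second set of shorter stretches, each a first match, or overlapping matches, with 5 bases on either side, sets members with other patterns beside them. ISG15 (chr1:1013379-1013404, plus strand), IFIT3 (chr10:89327836-89327855, plus strand), IFIT5 (chr10:89414518-89414537, plus strand), PARP9 (chr3:122564327-122564346, minus strand) and RSAD2 (chr2:6877627-6877646, plus strand) were higher in T24 than in 5637 and above 0 for treatment in T24. GBP1 (chr1:89065321-89065340, minus strand) and ISG20 (chr15:88638942-88638961, plus strand) were lower in treated than in untreated cells of both lines, and SAMD9 (chr7:93118101-93118120, minus strand) had the smallest difference between untreated T24 and untreated 5637.
ISG15: ctcggGAAAGGGAAACCGAAActgaa
IFIT3: ttaggTTTCATTTTCctcct
IFIT5: ttaagTTTCGGTTTCtgaag
PARP9: caaagTTTCAGTTTCgcttc
RSAD2: tcaacTTTCAGTTTCacatg
GBP1: agtacTTTCAGTTTCatatt
ISG20: aactaGAAACTGAAAcaggg
SAMD9: gaaatGAAACTGAAAccaaa

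Members with and without the core had similar median line differences, which were not tested against each other. The T24 minus 5637 difference in untreated cells had a median of 2.74 over the 23 members with a core (range 0.21 to 7.68) and of 2.67 over the 9 without (range -0.87 to 3.51), and these ranges overlap. The 8 members with a window and a difference above that 3.51, namely BST2, IFI27, IFI6, IFITM1, IFIT1, MX1, IFI44L and IFIT3, all held a core. Since 3.51 is the highest value without a core, this was bound to hold and tells nothing about the core. ISG20 and SAMD9 carry the letters GAAACTGAAA that BST2 also carries, while their line differences were 0.78 and 0.21 against 7.68 for BST2. The 9 members with a window and no match were RIGI, STAT2, IRF1, IRF9, HERC6, OAS1, IFI35, XAF1 and CMPK2. The absence of these letters from the window says nothing about the factor elsewhere.

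**Figure D2:**
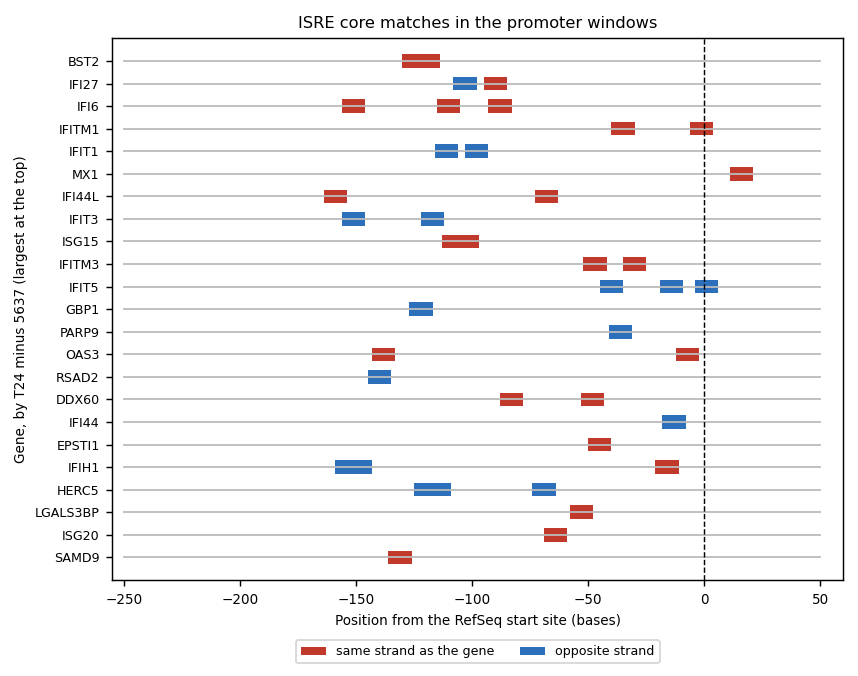
Positions of ISRE core matches relative to the RefSeq start site (dashed line) in the windows of the 23 members with a match, in bases, with genes ordered by their T24 minus 5637 difference in untreated cells, largest at the top, and 1 start site per gene. Red boxes are on the strand of the gene and blue boxes on the opposite strand, and in all 23 but MX1 at least 1 match begins before the start site shown. Another MX1 start site, not drawn, has a match that begins at -196.

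Protodioscin went with slightly higher levels of most members in T24. In treated against untreated T24, 35 of the 40 were above 0 on the log2(FPKM + 1) scale, where 56.0% of the 12193 genes compared were, and the median was 0.17, beside 0.025 over all genes compared. A difference of at least 0.25 (1.19-fold on that scale) was reached upward by 11 members (27.5%), against 8.00% of all genes, and downward by 0 members, against 8.58%. With a pseudocount of 5 the first count was 7, and with median-ratio or quantile scaling, or a pseudocount of 0.1, the second was 2. None reached 1 (2-fold), which 0.205% of genes did upward and 0.279% downward. Higher interferon-stimulated genes in treated T24 were known from earlier results of these libraries when the members were chosen, so these counts are no independent support.

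The largest differences were those of IFIT1 (0.45), RSAD2 (0.38), CMPK2 (0.37), IFIT3 (0.37) and OAS1 (0.37). In linear terms IFIT1 was 1.37 times as high in treated as in untreated T24, RSAD2 1.36 times, CMPK2 1.36 times, and both IFIT3 and OAS1 1.30 times. USP18 (0.34), MX2 (0.34), PARP9 (0.34), MX1 (0.29), RIGI (0.28) and IFIT5 (0.27) completed the 11. IFITM1 stood just below the size rule at 0.249.

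By role, all 4 IFIT genes were above 0 in treated T24, with a median of 0.32, as were all 4 OAS genes, with a median of 0.18, and all 3 RNA sensors, with a median of 0.23. The 4 genes of ISG15 conjugation had a median of 0.071, since ISG15 (0.077), HERC5 (0.065) and HERC6 (0.031) hardly differed. The STAT and IRF factors divided, with IRF7 at 0.17 and IRF9 at 0.13, and STAT2 at -0.15 and IRF1 at -0.055. Of the 8 members above 100 FPKM in T24, MX1 was the only one past 0.25, IFITM1, IFI6, BST2 and LGALS3BP lay between 0.15 and 0.25 (0.19 for IFI6, 0.16 for BST2 and 0.15 for LGALS3BP), and ISG15, IFI27 (0.037) and IFITM3 (0.023) were below 0.1. The 5 members below 0 were GBP1 (-0.24), ISG20 (-0.23), STAT2, IRF1 and IFITM2 (-0.0062, above 0 with TPM or quantile scaling).

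**Figure D3:**
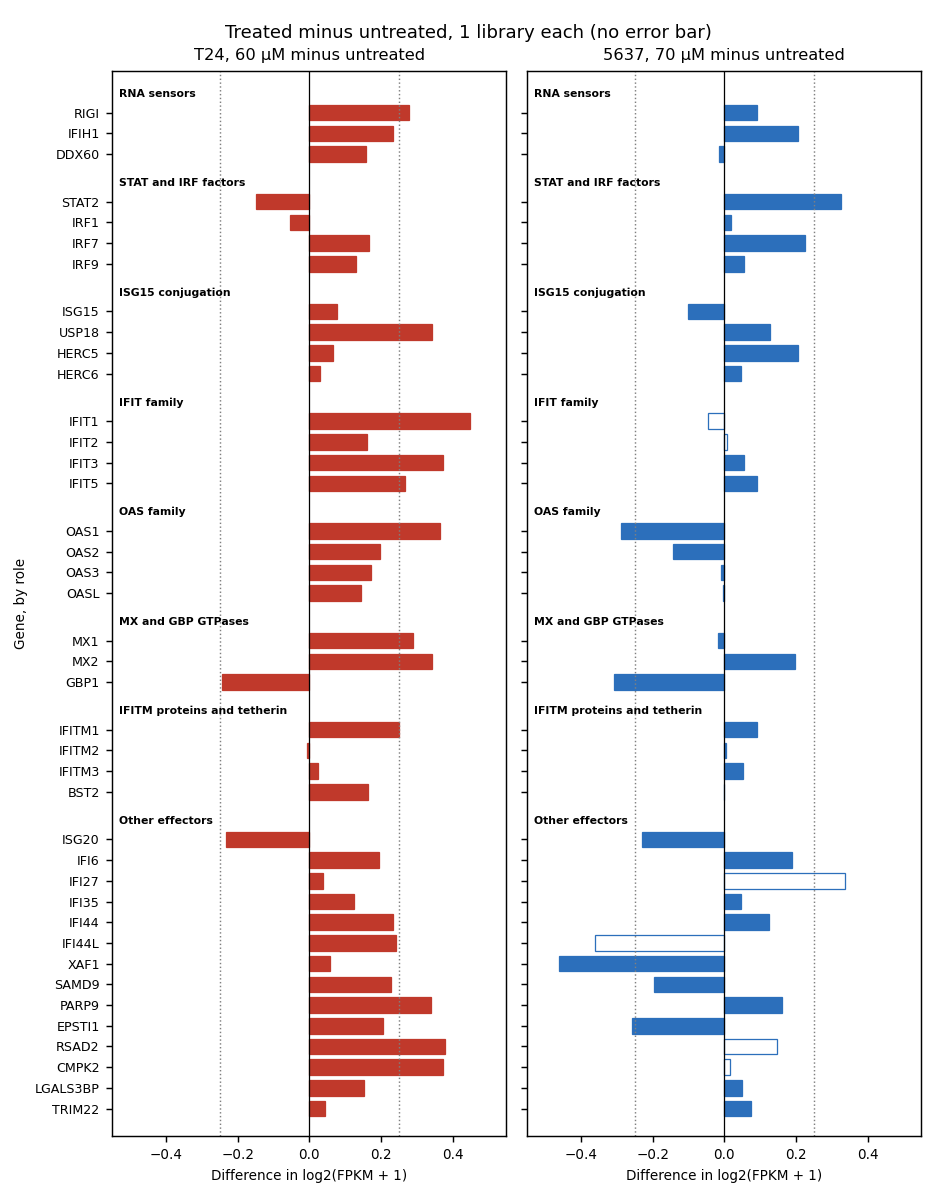
Treated minus untreated difference in log2(FPKM + 1) for each of the 40 genes, by role, in T24 (left, red) and 5637 (right, blue), each bar 1 library against 1 library. Dotted lines mark 0.25 in either direction and open bars are genes below 1 FPKM in both libraries of the line, and in T24 35 of 40 bars point right, while in 5637 they point both ways.

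In 5637 the members showed no common direction. Of the 32 at 1 FPKM or more in a 5637 library, 21 were above 0 (65.6%), beside 61.5% of the 12635 genes compared, and their median of 0.051 was close to the 0.043 over all genes. With median-ratio scaling 15 of the 32 were above 0, and with quantile scaling 17. STAT2 (0.33) was the only member of the 32 at least 0.25 higher (1, or 3.13%), against 9.31% of all genes, and 4 were at least 0.25 lower, against 6.40%. Between 0 and 5 were higher by that rule as the pseudocount went from 5 to 0.1, and 0 were lower with a pseudocount of 5 or a filter at 5 FPKM. None reached 1, which 0.174% of genes did upward and 0.214% downward. Over all 40 members, 25 were above 0 and the median was 0.047.

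The 4 lower ones were XAF1 (-0.46), GBP1 (-0.31), OAS1 (-0.29) and EPSTI1 (-0.26), at levels of 1.35 to 2.95 FPKM. GBP1, which lay below 0 in T24 too, was at 2.09 and 2.82 FPKM in treated and untreated 5637. Higher but under the size rule were IRF7 (0.23), IFIH1 (0.21), HERC5 (0.21), MX2 (0.20) and IFI6 (0.19). Below 1 FPKM, IFI27 differed by 0.34 and IFI44L by -0.36, and no counting error can be given for such levels. Of the 5 genes with the largest differences in T24, OAS1 was thus lower in 5637 and IFIT3 was at 0.054. The other 3, IFIT1 (-0.044), RSAD2 (0.15) and CMPK2 (0.015), were below 1 FPKM in 5637, where log2(FPKM + 1) draws differences toward 0, and whether the lines' responses differ was not tested.

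**Figure D4:**
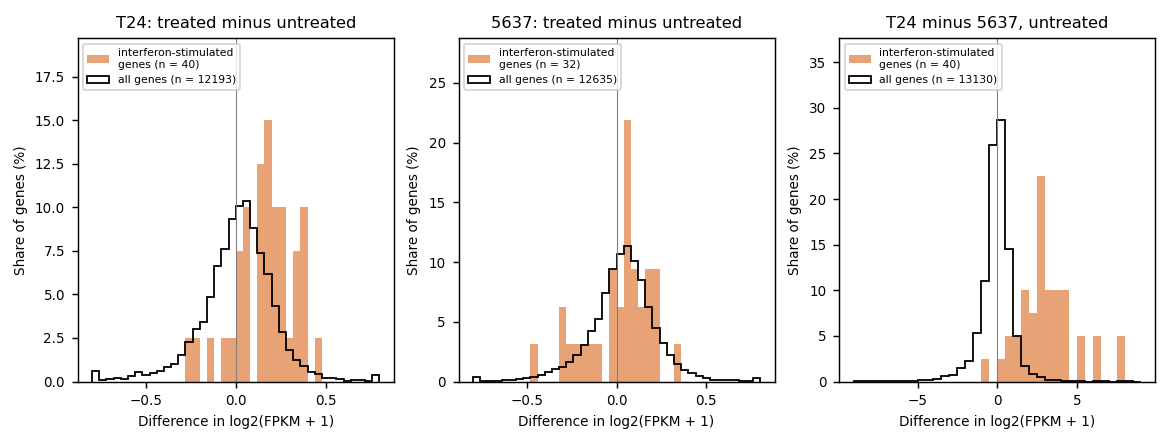
Share of genes (%) by difference in log2(FPKM + 1), for the members (filled) and for all genes compared (line), for treated minus untreated T24, treated minus untreated 5637, and untreated T24 minus untreated 5637, with values beyond the axis placed in the outermost bars. The members lie right of all genes in the first panel (median 0.17 against 0.025), on top of them in the second (0.051 against 0.043) and far right in the third (2.91 against 0.030).

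Over both lines together, limma with cell line as a block called 0 of the 40 members for treatment after adjustment. It called 0 of the 12893 genes tested, by the same threshold of 0.05. In simulated data of this design, 44.6% of log2 changes of 0.5 and 98.1% of changes of 1 were called. The coefficients of all members were smaller than 0.5, so the lack of calls cannot tell a small effect from none. Before adjustment 9 members (22.5%) passed it, 7 higher and 2 lower, where 9.52% of all genes did (5.58% higher and 3.94% lower). The lowest adjusted p among the members was 0.495, that of GBP1, at a coefficient of -0.28 (SE 0.086) and lower in treated cells of both lines. IRF7 (0.20, SE 0.064), MX2 (0.27, SE 0.089) and PARP9 (0.25, SE 0.084) followed, with limma adjusted p-values up to 0.497, and each was higher in treated cells of both lines. IFIH1, USP18, IFI6 and IFI44 were the other higher ones and ISG20 the other lower one.

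Beside these differences, the mitochondrially encoded transcripts had a median difference of -0.27 in T24 (10 of 11 below 0) and of 0.32 in 5637 (11 of 11 above 0). Their part in the members' differences was not tested. Leukocyte markers stayed below 1 FPKM in sum in every library, as given above.

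The other genes of the pathway were taken by role, and those named without a treatment difference of 0.25, receptors and kinases apart, were chosen after their values were seen. Interferon genes themselves were nearly silent: of 8 ligands, the highest value anywhere was 0.287 FPKM for IFNE in treated 5637, IFNA1, IFNG, IFNL2 and IFNL3 were at 0 in all 4 libraries, and IFNB1 was at 0.0803 FPKM in treated T24 and at 0 in the others. IFNL1, a lambda interferon, was at 0.231 and 0.0473 FPKM in treated and untreated T24 and at 0 in 5637. Protein interferon in the medium was not measured.

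Receptor transcripts were not higher in T24 as a group. Of 6 receptor genes tested, limma called IL10RB higher in T24 and 4 lower, where 35.1% of all genes were called higher and 33.9% lower, with a median difference of -0.46 in untreated cells. IFNAR1 was at 11.5 and 10.1 FPKM in treated and untreated T24 and at 13.4 and 12.5 FPKM in treated and untreated 5637. Its partner IFNAR2 was at 4.66 and 4.09 FPKM in treated and untreated T24 and at 4.62 and 3.94 FPKM in treated and untreated 5637, a line coefficient of 0.026 (SE 0.10, adjusted p = 0.825). IFNLR1, which with IL10RB receives lambda interferons, was at 0.857 and 0.781 FPKM in treated and untreated T24 and at 3.38 and 3.62 FPKM in treated and untreated 5637. The kinase JAK1, called higher in T24, was at 37.7 and 35.2 FPKM in treated and untreated T24 and at 22.3 and 20.9 FPKM in treated and untreated 5637. TYK2 was at 27.6 and 29.3 FPKM in treated and untreated T24 and at 29.4 and 26.9 FPKM in treated and untreated 5637, and JAK2, called lower in T24, at 4.34 and 4.11 FPKM in treated and untreated T24 and at 6.84 and 5.48 FPKM in treated and untreated 5637.

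DHX58, which encodes LGP2, the third sensor of the RIGI family, was at 14.6 and 11.8 FPKM in treated and untreated T24 and at 1.14 and 0.720 FPKM in treated and untreated 5637, with treatment differences of 0.28 in T24 and 0.32 in 5637. STING1, the adaptor of DNA sensing, was at 9.60 and 11.1 FPKM in treated and untreated T24 and at 1.59 and 1.97 FPKM in treated and untreated 5637, whereas the DNA sensor CGAS was at 6.49 and 7.53 FPKM in treated and untreated T24 and at 8.65 and 8.79 FPKM in treated and untreated 5637. The adaptor MAVS differed by 0.66 between the untreated lines, and the kinase TBK1 was at 12.2 and 11.4 FPKM in treated and untreated T24 and at 12.2 and 11.4 FPKM in treated and untreated 5637. Of the 11 sensors, adaptors and kinases that were tested, 5 were called higher in T24 (45.5%) and 3 lower (27.3%), shares not far from the 35.1% and 33.9% of all genes.

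Of 6 negative regulators, 0 were called higher in T24 and 4 lower, beside 35.1% and 33.9% of all genes. SOCS1, an inhibitor of JAK kinases that is itself induced by interferon, was at 1.47 and 1.11 FPKM in treated and untreated T24 and at 4.60 and 4.76 FPKM in treated and untreated 5637, opposite in order to most members. IRF2, which competes with IRF1 for its sites, was at 15.0 and 10.3 FPKM in treated and untreated T24 and at 12.5 and 12.8 FPKM in treated and untreated 5637, a treatment difference of 0.51 in T24 and -0.034 in 5637. TRAF3, a signalling adaptor for interferon production, had the largest treatment difference on these lists, at 8.02 and 13.1 FPKM in treated and untreated T24 (-0.65) and at 10.5 and 9.81 FPKM in treated and untreated 5637 (0.085).

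A further 25 interferon-induced genes, outside the 40, had the same line order: 24 were called higher in T24 and 1, LGALS9, lower, beside 35.1% and 33.9% of all genes, with a median of 1.15 in untreated cells. This list too was chosen with earlier results of these data known, so its counts are no independent support. LGALS9, a galectin that shares exons with a neighbouring gene, was at 1.33 and 0.805 FPKM in treated and untreated T24 and at 8.33 and 8.92 FPKM in treated and untreated 5637. In treated T24, 19 of the 25 were above 0 (56.0% of all genes were), 8 were at least 0.25 higher (8.00% of all genes) and 0 at least 0.25 lower (8.58%), with a median of 0.14. Among the 8 were TRIM21, an intracellular antibody receptor (30.5 and 21.6 FPKM in treated and untreated T24, 0.48), and PARP14, a relative of PARP9 (46.2 and 34.0 FPKM, 0.43). In 5637, 7 of the 23 at 1 FPKM or more were above 0 (61.5% of all genes were) and the median was -0.019, with PLSCR1, a scramblase with antiviral activity, at 18.6 and 25.8 FPKM in treated and untreated cells (-0.46). Genes induced mainly by interferon gamma were low, with CXCL9 at 0 in all 4 libraries and CIITA and CXCL10 below 1 FPKM, apart from GBP3, which was at 37.6 and 35.6 FPKM in treated and untreated T24 and at 7.78 and 7.67 FPKM in treated and untreated 5637, and the tRNA synthetase gene WARS1, which is expressed in most cells.

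**Figure D5:**
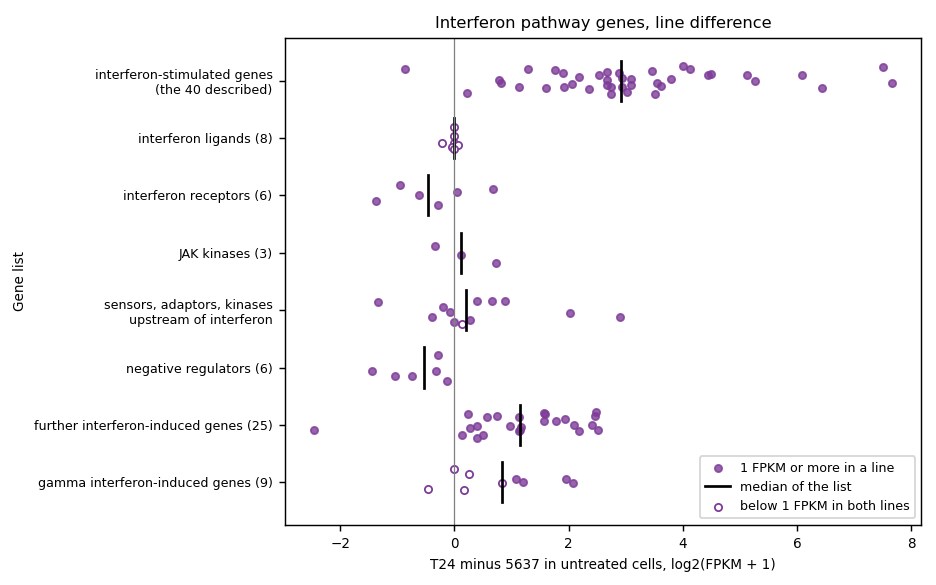
T24 minus 5637 difference in log2(FPKM + 1) in untreated cells for the 40 genes and 7 other lists of the pathway, each point a gene, open where it was below 1 FPKM in both lines, and the black bar the median of the list. The 40 genes lie furthest right, at a median of 2.91, whereas receptors and negative regulators have medians of -0.46 and -0.53.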

How the data were processed

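RNA of 4 libraries, 1 per group, was sequenced. Per the labels' protocols, a Qiagen kit gave the RNA and an Illumina TruSeq RNA v2 kit the libraries, a kind that does not mark strand. The authors deposited gene-level FPKM for all 4. The submitters' processing notes name Trimmomatic, HISAT2, StringTie and GRCh38, and the annotation release was not given in the sources used here. StringTie estimates how reads divide between overlapping transcripts, so genes that share exons are uncertain.

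Read depth is unknown. Among low values of single-transcript genes, 24.2% to 26.6% lay within 0.1 of a whole number of reads, so counts were not recovered and no count test was run.

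Differences are of log2(FPKM + 1), which understates low genes, and genes at 1 FPKM in at least 1 library compared were kept. Size rules were 0.25 and 1. limma 3.58.1 (R 4.3.3, trended prior variance, Benjamini-Hochberg) was fitted over all genes at 1 FPKM in at least 2 of 4 libraries and tested on simulated data. Within a line no test was possible. Exon overlap and positions came from GENCODE 29 and promoters from RefSeq (GRCh38.p14). The 40 members, the other lists and the size rules were chosen with earlier results of these data known. Members at 10 FPKM or more in a library, or past 0.25 in a line, were to be named with all 4 values. Of the other lists, genes past 0.25 and the receptors and kinases could be named, and not all of these are reported here. Alternatives changed the pseudocount, filter, scaling, exon-sharing genes and limma terms.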

Additional observations from a re-analysis of the deposited data

Results flagged for a closer look

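The treatment difference of 5 members had opposite signs in T24 and 5637, each of at least 0.1 on the log2(FPKM + 1) scale and at 1 FPKM or more in both lines. The share of all genes that meet this rule was not counted, so whether 5 members are many or few cannot be said. The doses differed between the lines, each value is 1 library against 1, and the difference between the lines' responses was not tested. OAS1 was 0.37 in T24 and -0.29 in 5637, a T24 minus 5637 difference of 0.65. STAT2 went the other way, at -0.15 in T24 and 0.33 in 5637 (-0.47). EPSTI1 was at 0.21 and -0.26 in T24 and 5637 (0.47), SAMD9 at 0.23 and -0.20 (0.42) and OAS2 at 0.20 and -0.14 (0.34). Mitochondrially encoded transcripts also differed in sign, with medians of -0.27 in T24 and 0.32 in 5637, and their part in these 5 values was not tested.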

How the results depend on the processing

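The line difference kept its direction under all 8 alternatives of pseudocount, filter, scaling and exon sharing: at least 1 higher in T24 were 31 to 36 members in treated and in untreated cells, and 35 to 40 members were called by limma, 35 once the 5 with a same-strand exon partner were left out. Its size depends on the pseudocount. With 0.1 the median was 3.27 in treated and 3.25 in untreated cells, with 5 it was 2.24 and 2.11, and without exon-sharing genes it was 2.74 in untreated cells. In T24 the median treatment difference ranged from 0.15 to 0.19, the members at least 0.25 higher from 7 (pseudocount 5) to 13, and those at least 0.25 lower were 2 with median-ratio or quantile scaling or a pseudocount of 0.1. In 5637 the median ranged from -0.0015 to 0.059, the signs of HERC6, IFI35, IFITM2, IFITM3, IRF1 and LGALS3BP turned below 0 with at least 1 other scaling, and the members at least 0.25 higher were 5 with a pseudocount of 0.1, 2 without a filter and 0 with a pseudocount of 5. limma called 2 genes for treatment with a pseudocount of 0.1 and 2 without exon-sharing genes, and 0 members under every alternative, also without a term for cell line. The number of genes called between the lines ranged from 6437 to 8979. Scaling moved the median of all genes by less than 0.1. The labels number no replicates, and the block for cell line is what pairs treated and untreated libraries. Leaving out a library leaves limma no residual degree of freedom. The cause of these shifts was not tested. With no replicates and an unknown read total, small differences of members below 1 FPKM in 5637 cannot be judged.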
